A study of Mus musculus with 3 samples.

Results

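Igf2, H19, Cdkn1c and Phlda2 are 4 imprinted growth regulators that lie close together on distal mouse chromosome 7, and all 4 were among the 14656 genes counted in both deposited tables. The genes are taken by name, and their counts were left out when the cell classes were defined. They were measured in single cells of dorsal skin epithelium from wild-type (WT) C57BL/6JOlaHsd mouse embryos at E14.5 (the embryonic day), when the placodes of the first hair follicles, local thickenings of the epidermis, are present. Dispase II freed the epithelium from the dermis, epithelia of 3 to 4 littermates went into each library, and live cells were sorted either as total epithelium (1 library) or as placode-enriched cells that stained for the adhesion molecule MAdCAM-1 (2 libraries, biological replicates per the series design). All libraries share genotype, strain, age and tissue, and they hold epithelium parted from its dermis, with no condition other than the sort. Each library is a pool of littermates, so embryos within it cannot be told apart.

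The tables held 1601 cells of total epithelium and 1511 and 1571 placode-enriched cells, with 36921755, 34895848 and 38640357 unique molecular identifiers (UMIs, each a captured RNA molecule) and medians of 21642 to 23419 UMIs per cell. After removal of called doublets, 117 of 1590, 1020 of 1507 and 1064 of 1567 cells fell in placode-like clusters, 1119, 405 and 407 in basal epidermis-like clusters and 334, 81 and 96 in suprabasal-like clusters. Melanoblast-like cells numbered 20 in total epithelium and 1 in a placode-enriched library. The libraries differed in more than the sort: Xist, transcribed from the inactive X chromosome, had 0.11 CPM (UMIs of the gene scaled to a common total) in total epithelium and 999.8 and 924 CPM in the placode-enriched libraries, so sort, litter and its sex mix cannot be told apart between libraries. Pairs of libraries shared 1, 1 and 2 cell barcodes, and none of these had identical counts. Classes were therefore compared within each library.

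An imprinted gene is transcribed mainly from the copy inherited from a single parent. Igf2 encodes a secreted growth factor of the insulin family and is expressed from the paternal copy, while the neighbouring H19, a long non-coding RNA, comes from the maternal copy. A shared control region between them, bound by CTCF on the maternal copy, directs common enhancers to H19 or to Igf2. Cdkn1c, an inhibitor of cyclin-dependent kinases, and Phlda2, a small pleckstrin-homology protein that restrains placental growth, are maternally expressed members of the adjoining domain, where the non-coding RNA Kcnq1ot1 silences the paternal copies. Parent of origin was not measured here, since the strain is inbred and the tables hold counts only.

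All 4 genes are read from the minus strand of chromosome 7 (GRCm38, the reference behind mm10; GENCODE M21 models). H19, annotated as a lincRNA with 7 transcripts of 2 to 5 exons, spans 142575529 to 142578143. Igf2, protein-coding with 9 transcripts of 2 to 6 exons, spans 142650766 to 142666816, which leaves 72.6 kb between the pair. Cdkn1c (5 transcripts of 2 to 4 exons) spans 143458339 to 143461050, and Phlda2 (3 transcripts of 2 exons) spans 143501545 to 143503150, 40.5 kb away. The whole group covers 927.6 kb. Igf2 overlaps an annotated antisense gene, Igf2os, and the read-through model Gm49394, and Cdkn1c has the antisense model Gm44732. The strand setting of the counting was not given in the sources used here, so reads from these partners cannot be told apart from those of Igf2 and Cdkn1c.

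H19 and Igf2 each host a microRNA, shown because reads assigned to the host gene are the only trace of these loci in poly(A) libraries read from the 3′ end, which do not capture the mature microRNAs. The RefSeq mature sequences (GRCm38.p6) follow 5′ to 3′, with the seed, bases 2 to 8, in capitals. The mmu-miR-675 pair lies in an exon of H19, at chr7:142577112-142577133 (5p) and chr7:142577078-142577099 (3p). The mmu-miR-483 pair lies in an intron of Igf2, at chr7:142654968-142654989 (5p) and chr7:142654932-142654952 (3p). No seed is shared among the 4 sequences.
mmu-miR-675-5p: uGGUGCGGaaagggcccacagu
mmu-miR-675-3p: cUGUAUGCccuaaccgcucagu
mmu-miR-483-5p: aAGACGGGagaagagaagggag
mmu-miR-483-3p: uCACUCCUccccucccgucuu

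Of the members, the RefSeq promoter table gave windows for Igf2 (4 start sites) and Phlda2 (1). A single 250-base window, upstream of an Igf2 start site inside the gene body and clear of every annotated exon, is printed because Igf2 was the member with the largest rise from basal epidermis-like to suprabasal-like cells. It lies at chr7:142657497-142657746 on the minus strand (GRCm38.p6), with the GC box GGGCGG and the CCAAT box, searched on both strands and here read as ATTGG, in capitals. Of 32851 mouse windows of this length, 32.7% held GGGCGG and 33.9% held CCAAT, so such matches are common and are a description only. The letters TATAAA, found in 12.4% of windows, are not in this window.
Igf2 window: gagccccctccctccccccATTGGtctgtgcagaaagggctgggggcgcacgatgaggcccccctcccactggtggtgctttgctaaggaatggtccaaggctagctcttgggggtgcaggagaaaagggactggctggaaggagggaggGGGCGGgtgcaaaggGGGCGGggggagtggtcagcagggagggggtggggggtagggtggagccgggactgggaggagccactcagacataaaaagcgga

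All 4 members were lower in placode-like than in basal epidermis-like cells, in every library. Igf2, H19 and Cdkn1c were lower by factors of 2.39, 2.07 and 2.19, and Phlda2 by a factor of 5.52. Over 16 alternatives the log2 fold change ranged from -1.89 to -1.07 for Igf2, from -1.36 to -0.82 for H19, from -1.47 to -0.81 for Cdkn1c and from -3.31 to -1.0 for Phlda2. The smallest came at a clustering resolution of 0.5, and the -1.89 of Igf2 under a stricter rule for naming clusters. Phlda2 was at -3.31 at a resolution of 2, at -3.19 without clusters 9 and 11 and at -3.18 under the stricter rule. Of 6218 genes tested, 20.1% were higher, 20.2% were lower and 40.3% differed in either direction at an adjusted p under 0.05, so a difference by itself was common, while 1.99%, 2.67%, 2.41% and 0.386% of genes had a lower log2 fold change than Igf2, H19, Cdkn1c and Phlda2. The tests were edgeR quasi-likelihood fits of UMIs summed per library and class, with library as a block and Benjamini-Hochberg adjustment over all genes tested. Values per library are CPM of those sums, and CPM compares a gene between classes, not genes with each other.

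Igf2, the growth factor, was at 43.7 CPM in placode-like cells of total epithelium and at 45.5 and 54.3 CPM in those of the placode-enriched libraries. In basal epidermis-like cells it was at 108, 102 and 132 CPM in the same order. The highest placode-like library lay well under the lowest basal one, and the class ranges did not overlap. The log2 fold change was -1.26 (SE 0.05, adjusted p = 1.64e-10). An Igf2 UMI was found in 46.8% to 49.6% of placode-like cells and in 83.9% to 88.7% of basal epidermis-like cells. After each cell was thinned to 5000 UMIs these shares were 17.0% to 23.1% and 37.0% to 44.0%.

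H19, the non-coding partner of Igf2, was at 384, 219 and 250.1 CPM in placode-like cells and at 746.5, 443 and 529 CPM in basal epidermis-like cells of total epithelium and of placode-enriched libraries 1 and 2. The ranges did not overlap, although the total epithelium library was the highest in both classes. The log2 fold change was -1.05 (SE 0.03, adjusted p = 1.17e-11), and the 3 libraries gave -0.96, -1.02 and -1.08 on their own. H19 was detected in at least 90.1% of placode-like and 99.3% of basal epidermis-like cells of every library.

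Cdkn1c, which halts the cell cycle in G1, was at 69.5, 59.2 and 56.8 CPM in placode-like cells. In basal epidermis-like cells it was at 144, 126 and 126 CPM, so the 3 libraries of each class lay close together and apart from those of the other. The log2 fold change was -1.13 (SE 0.05, adjusted p = 1.67e-10).

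Phlda2, the growth restrainer, had the lowest counts of the group, with 15.0, 9.05 and 8.42 CPM in placode-like cells (32, 196 and 203 UMIs) against 47.9, 53.3 and 47.6 CPM in basal epidermis-like cells. Its log2 fold change was -2.46 (SE 0.10, adjusted p = 1.18e-10), and the ranges did not overlap. The difference was smaller in total epithelium, with a log2 ratio of -1.67 against -2.56 and -2.50 in the placode-enriched libraries. A Phlda2 UMI was found in 23.9%, 12.8% and 11.6% of placode-like cells and in 51.9%, 53.8% and 48.4% of basal epidermis-like cells.

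**Figure D1:**
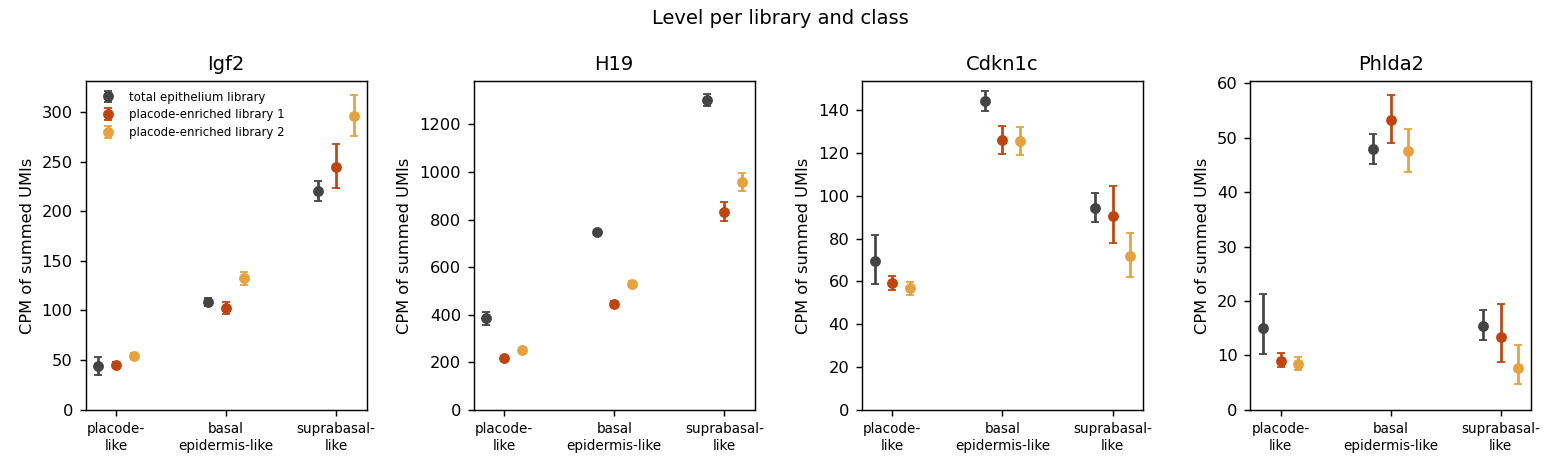
Level of each member (CPM of summed UMIs, linear axes from 0) in placode-like, basal epidermis-like and suprabasal-like cells, with 1 point per library and bars for the exact 95% Poisson interval, which covers counting error only. Igf2 and H19 rise from placode-like to basal to suprabasal-like cells in every library, whereas Cdkn1c and Phlda2 are highest in basal epidermis-like cells.

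The pair of genes at each end of the region parted ways in suprabasal-like cells, the first differentiating layer. Igf2 and H19 rose a further 2.15 and 1.76 times over basal epidermis-like cells, while Cdkn1c and Phlda2 fell by factors of 1.59 and 3.95. Of 5850 genes tested, 13.5% were higher, 13.2% lower and 26.7% either. The Igf2 levels were 220.1, 245 and 296 CPM in total epithelium and placode-enriched libraries 1 and 2, above the basal levels given before in every library. Its log2 fold change was 1.11 (SE 0.07, adjusted p = 2.98e-05, edgeR).

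H19 was at 1302, 833 and 956 CPM in suprabasal-like cells, all above the highest basal value of 746.5 CPM, with a log2 fold change of 0.82 (SE 0.05, adjusted p = 3.02e-05). Cdkn1c was at 94.6, 90.5 and 71.7 CPM, between its placode-like and basal levels in every library, with a log2 fold change of -0.67 (SE 0.09, adjusted p = 0.00145). Over cells with a low share of G2 and M phase transcripts this difference was -0.31 (adjusted p = 0.216) and no longer passed, where the other 14 of its 15 alternatives did. Phlda2 was at 15.4, 13.4 and 7.77 CPM, with a log2 fold change of -1.98 (SE 0.18, adjusted p = 1.98e-04). These values overlap its placode-like range of 8.42 to 15.0 CPM, the only pair of classes whose ranges overlapped for a member. Ranges that lie apart were not counted over all genes, so for the members they are a description only.

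As means over the 3 libraries, Igf2 was at 47.8 ± 5.69, 114 ± 15.9 and 254 ± 38.6 CPM (SD, n = 3) in placode-like, basal and suprabasal-like cells. The same means for Cdkn1c were 61.8 ± 6.77, 132 ± 10.7 and 85.6 ± 12.2 CPM, and those for Phlda2 were 10.8 ± 3.65, 49.6 ± 3.24 and 12.2 ± 3.95 CPM. The means of H19 were 284 ± 87.9, 573 ± 156.5 and 1030.0 ± 243 CPM, with the wider spread set by the total epithelium library. The 20 melanoblast-like cells of total epithelium, the pigment cell precursors, had 14.7 CPM of Igf2 (7 UMIs, exact Poisson interval 5.90 to 30.2 CPM), 136 CPM of H19, 58.7 CPM of Cdkn1c and 6.29 CPM of Phlda2 (3 UMIs). No other library had enough cells of this class for a sum, and it was not tested.

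**Figure D2:**
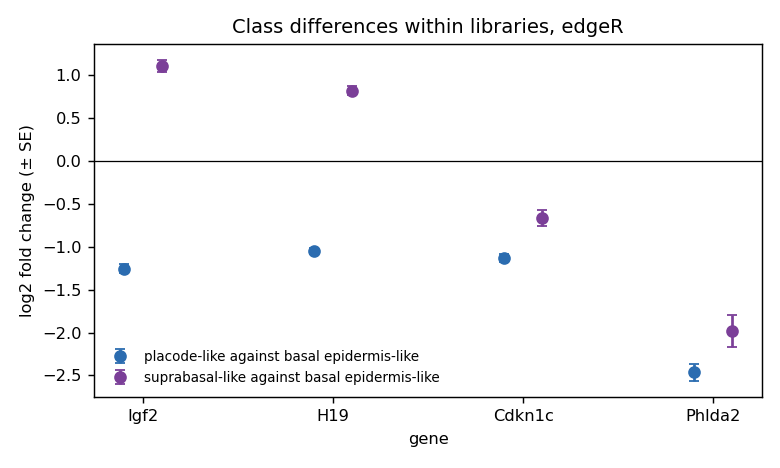
Fitted log2 fold change (± SE, edgeR) of placode-like and of suprabasal-like against basal epidermis-like cells for each member. All 4 placode-like values lie under 0, from -1.05 for H19 to -2.46 for Phlda2, and the suprabasal-like values lie above 0 for Igf2 and H19 and under 0 for Cdkn1c and Phlda2.

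Levels of genes listed as fibroblast markers differed between the classes. Of 8 fibroblast markers 6 were measured, and their summed level was 1074 to 1334 CPM in placode-like cells, 702 to 876.5 CPM in basal epidermis-like cells and 256 to 316 CPM in suprabasal-like cells. Dcn (decorin) was the larger of its main parts in placode-like cells (758 to 865.5 CPM, with Postn at 295.1 to 356 CPM), and Postn (periostin) in suprabasal-like cells (132 to 230.0 CPM, with Dcn at 79.5 to 122 CPM). Dcn was found in 98.3% to 99.0% of placode-like and 98.5% to 98.8% of basal epidermis-like cells. For Postn these shares were 84.6% to 93.7% and 96.6% to 97.8%. The defining collagens Col1a1 and Col3a1 were at most 1.02 CPM in the 3 classes of every library, except in placode-like cells of total epithelium, where Col1a1 was at 40.4 CPM (86 UMIs, found in 1.71% of cells) and Col3a1 at 34.3 CPM (73 UMIs, 3.42% of cells). Lum was at 47.5 CPM in those cells, against 3.51 and 2.53 CPM for the same class in the other libraries. The listed collagen Col1a2 was at 51.2 CPM in those cells. In placode-like cells of placode-enriched libraries 1 and 2 Col1a2 was at 15.7 and 15.9 CPM (21.3% and 23.6% of cells). In basal epidermis-like cells of total epithelium and these libraries it was at 5.89, 11.8 and 10.45 CPM. Among cells in the lower part of their library by fibroblast marker share, the placode-like differences were -1.08 for Igf2, -0.91 for H19, -1.097 for Cdkn1c and -2.06 for Phlda2. That share is made mostly of Dcn and Postn, so this cut does not set another cell type apart. The 2 measured of 5 erythroid markers were at 3.70 to 11.3 CPM in suprabasal-like and at most 0.51 CPM in basal epidermis-like cells, and their part in the Igf2 and H19 levels was not tested. Endothelial (1 of 4 measured) and muscle (2 of 4 measured) markers were at no more than 5.17 and 1.11 CPM in any of these classes, and the immune and Merkel cell markers were not among the genes used. Median depth was 16989 to 21641 UMIs in placode-like and 21892 to 28362 UMIs in basal epidermis-like cells.

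Different clusters made up the classes in the 2 sorts. Basal epidermis-like cells of total epithelium came almost wholly from clusters 0, 1 and 2 (246, 549 and 297 cells), whereas those of the placode-enriched libraries came from cluster 8, led by G2 and M phase genes (178 and 180 cells), and cluster 11 (211 and 226 cells). Suprabasal-like cells were mostly cluster 6, led by Krt1 and Krt10, in total epithelium (242 cells) and cluster 7, led by Grhl3, in the placode-enriched libraries (73 and 88 cells). Cluster 6 met all 8 suprabasal markers, and cluster 7 met 3, the fewest that the naming rule allowed. In cluster 7, which all libraries filled, Igf2 was at 208, 238 and 283 CPM and H19 at 1178, 755 and 905 CPM, so both stood above basal epidermis-like cells there as well. In cluster 7 Phlda2 was at 29.2 CPM in total epithelium (61 UMIs) and at 13.6 and 8.71 CPM in the others.

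Within the placode-like class the levels ran from cluster 4, led by Shh, to clusters 9 and 10. In the placode-enriched libraries, cluster 4 had 19.04 and 25.8 CPM of Igf2, 112 and 134 CPM of H19, 35.3 and 34.4 CPM of Cdkn1c and 4.01 and 1.41 CPM of Phlda2 (16 and 9 UMIs). Cluster 9 is led by histone genes, among them Hist1h1b, Hist1h4d and Hist1h1a, with Sox9 and Col1a2 also among its leading genes. It had 95.2 and 125 CPM of Igf2 and 20.04 and 23.6 CPM of Phlda2. Cluster 10, led by Steap4 and Wif1, had 53.9 and 68.8 CPM of Igf2 and 8.39 and 9.70 CPM of Phlda2. Members did not take part in the clustering, but clusters are groups of cells of the same libraries, and these levels are a description.

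The placode is known to hold a central population that expresses Shh, a ligand of the hedgehog pathway, and a surrounding population that expresses Sox9, a transcription factor of later follicle stem cells. All 4 members were lower in placode-like cells that had Shh UMIs but lacked Sox9 UMIs (28, 275 and 311 cells in total epithelium and placode-enriched libraries 1 and 2) than in those that had Sox9 UMIs but lacked Shh UMIs (43, 318 and 293 cells). Of 11169 genes tested, 9.97% were higher, 10.4% lower and 20.4% either. Of 21 tested cyclins, cyclin-dependent kinases and inhibitors of G1, 2 were higher and 7 lower, with the largest falls in Ccne2 (-0.94) and Ccnd1 (-0.92). The part of cell cycle state in the member differences was not tested. Igf2 was at 29.3, 21.4 and 27.9 CPM in Shh-UMI cells against 54.9, 61.7 and 84.1 CPM in Sox9-UMI cells. The ranges were apart, and the log2 fold change was -1.51 (SE 0.10, adjusted p = 2.92e-33, edgeR).

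H19 was at 260, 129 and 156 CPM in Shh-UMI cells and at 480, 277 and 327 CPM in Sox9-UMI cells, lower in every library by a factor of 1.85 to 2.15. Its log2 fold change was -1.04 (SE 0.05, adjusted p = 2.84e-44). Cdkn1c was at 31.4, 44.8 and 32.9 CPM against 74.4, 72.2 and 74.7 CPM, with a log2 fold change of -0.92 (SE 0.09, adjusted p = 1.69e-18). Phlda2 was at 12.6, 3.898 and 2.13 CPM against 18.3, 11.8 and 14.7 CPM, with a log2 fold change of -1.98 (SE 0.23, adjusted p = 1.93e-13). Its sums held only 6 to 106 UMIs, and the log2 ratio ranged from -0.54 in total epithelium to -2.79 in placode-enriched library 2.

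**Figure D3:**
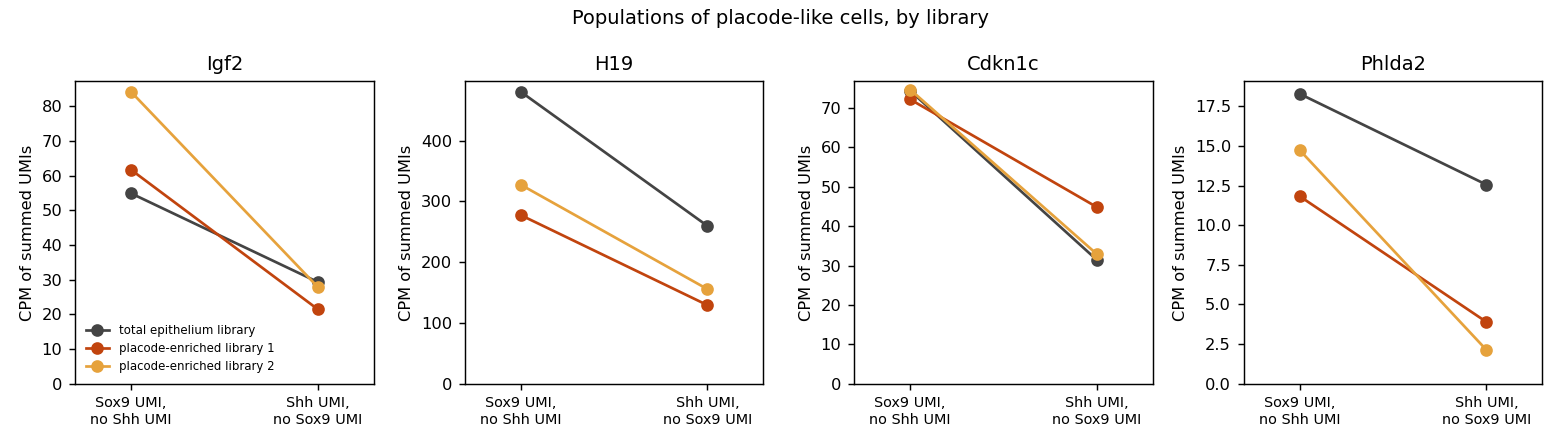
Level of each member (CPM of summed UMIs, linear axes from 0) in the Sox9-UMI and the Shh-UMI cells of the placode-like class, with 1 line per library. Every line falls from the Sox9-UMI to the Shh-UMI cells, for Igf2 in placode-enriched library 2 from 84.1 to 27.9 CPM.

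Because Cdkn1c acts on the cell cycle, the members were compared between the upper and the lower tercile of cells by their share of 50 G2 and M phase transcripts, within each library and class. Terciles are ranges of a score and not cell types, and up to 24.8% of cells lay within 10 percent of a cut. In basal epidermis-like cells Phlda2 was at 55.4, 74.6 and 69.5 CPM in the upper tercile and at 34.1, 39.8 and 29.4 CPM in the lower tercile of total epithelium and placode-enriched libraries 1 and 2. The ranges were apart, with a log2 fold change of 0.89 (SE 0.10, adjusted p = 3.06e-09, edgeR), in a fit where 21.2% of 10457 genes differed. Cdkn1c was at 148, 131 and 134 CPM against 134.5, 108 and 122 CPM, a log2 fold change of 0.17 (SE 0.06, adjusted p = 0.0332) that did not pass in 5 of 8 alternatives, among them leaving out placode-enriched library 1 (0.14, adjusted p = 0.212) or library 2 (0.20, adjusted p = 0.0585). Igf2 and H19 had log2 fold changes of -0.16 (SE 0.06, adjusted p = 0.0831) and -0.03 (SE 0.04, adjusted p = 0.703).

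In placode-like cells all 4 members were higher in the upper tercile, by log2 fold changes of 0.50 for Igf2 (SE 0.09, adjusted p = 2.89e-06), 0.56 for H19 (SE 0.05, adjusted p = 2.46e-16), 0.47 for Cdkn1c (SE 0.08, adjusted p = 1.27e-06) and 1.19 for Phlda2 (SE 0.22, adjusted p = 3.35e-06), where 31.3% of 11077 genes differed and 16.9% were higher. Phlda2 was at 10.6 and 11.6 CPM against 5.19 and 3.88 CPM in the placode-enriched libraries but at 13.6 against 15.9 CPM (12 and 9 UMIs) in total epithelium. Without placode-enriched library 2 the values were 0.29, 0.35, 0.32 and 0.79, and H19 alone still passed, while Igf2, Cdkn1c and Phlda2 had adjusted p values of 0.224, 0.105 and 0.103. Cells of the upper tercile also held more UMIs: the 340 cells of each tercile in placode-enriched library 1 summed to 8988308 and 5784734 UMIs. Of the other inhibitors tested from the G1 list, Cdkn1b, Cdkn2c and Cdkn2d were higher in the upper tercile of both classes, the direction of Cdkn1c. The log2 fold change of Cdkn1b was 1.28 (edgeR adjusted p = 1.05e-08) in basal epidermis-like and 0.92 (adjusted p = 1.39e-10) in placode-like cells. In the same order, Cdkn2c had 3.313 and 3.175, and Cdkn2d had 2.113 and 1.894. For Cdkn1a, the classical p53 target, the values were -0.19 (adjusted p = 0.747) and -1.07 (adjusted p = 2.06e-05).

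**Figure D4:**
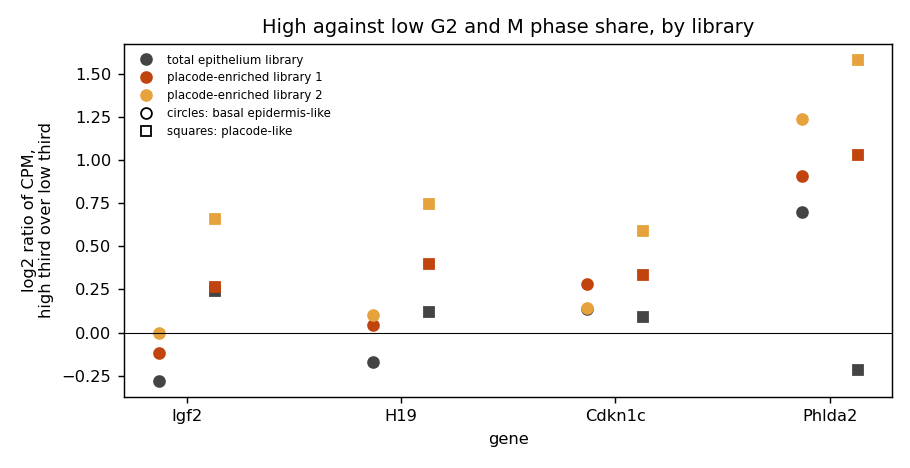
Log2 ratio of CPM between cells with a high and a low share of G2 and M phase transcripts, with 1 point per library, circles for basal epidermis-like and squares for placode-like cells. Phlda2 lies above 0 in all but the placode-like cells of total epithelium (-0.22), and Igf2 lies at or under 0 in basal epidermis-like cells and above 0 in placode-like cells.

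Between libraries, the whole-library sums of all 4 members were lower in the placode-enriched than in the total epithelium library. H19 was at 326 and 384 CPM against 843 CPM, Igf2 at 75.1 and 94.9 against 129 CPM, Cdkn1c at 82.2 and 78.8 against 128 CPM, and Phlda2 at 23.4 and 20.2 against 38.1 CPM. The log2 fold changes were -1.21 for H19, -0.55 for Igf2, -0.62 for Cdkn1c and -0.76 for Phlda2 (edgeR adjusted p = 1.15e-06, 0.00494, 3.71e-04 and 1.93e-04), in a fit where 17.1% of 13716 genes were higher, 14.8% lower and 31.9% either. A sum over all cells cannot tell a different mix of classes from a different level per cell, and 67.7% and 67.9% of placode-enriched cells were placode-like against 7.36% in total epithelium. With 2 libraries against 1 the exact permutation test cannot go below p = 0.333, and the fit has 1 residual degree of freedom.

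Within a class, H19 was the only member that passed the test as lower in both. In placode-like cells, without cluster 9, it was at 193 and 212 CPM in the placode-enriched libraries against 369 CPM in total epithelium (log2 fold change -0.79, SE 0.13, edgeR adjusted p = 1.51e-06), where 3.15% of 6379 genes differed, 1.6% higher and 1.55% lower. At a clustering resolution of 0.5 this difference was -0.36 (adjusted p = 0.343; 7.30e-07 to 0.343 over its alternatives). The placode-like class differed in makeup too: cluster 4, where H19 was low, gave 12 of 103 cells in total epithelium against 230 of 876 and 344 of 920, and cluster 10 gave 55 against 260 and 170. The part of this makeup in the H19 difference was not tested. Nor was that of the few cells with Col1a1 UMIs, 1.71% of the placode-like cells of total epithelium. The basal epidermis-like fit mostly set cluster 8 of the placode-enriched libraries (178 and 180 cells) against clusters 0, 1 and 2 of total epithelium. The part of these different clusters in its H19 difference was not tested. In basal epidermis-like cells, without cluster 11, H19 was at 448 and 545 against 749 CPM (-0.52, SE 0.11, adjusted p = 7.12e-05), where 14.1% of 5666 genes differed, 8.22% higher and 5.91% lower. Igf2, its neighbour, was at 35.4 and 40.2 against 38.5 CPM in placode-like cells (0.05, SE 0.20, adjusted p = 0.948) and at 101 and 126 against 109 CPM in basal epidermis-like cells (0.13, SE 0.13, adjusted p = 0.543). Cdkn1c gave -0.45 (SE 0.17, adjusted p = 0.159) and -0.08 (SE 0.12, adjusted p = 0.729).

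The Phlda2 values had opposite signs in the 2 classes, and the one in placode-like cells did not pass the test. It was at 6.83 and 5.38 against 13.7 CPM in placode-like cells (-1.099, SE 0.36, adjusted p = 0.0644, 25 UMIs in total epithelium) and at 64.5 and 57.8 against 48.3 CPM in basal epidermis-like cells (0.41, SE 0.14, adjusted p = 0.0297). The latter call did not hold in 4 of 5 tested alternatives, and the basal cells of the placode-enriched libraries in this fit are the G2 and M phase-led cluster 8. The interaction of class and sort was -1.51 for Phlda2 (SE 0.36, adjusted p = 0.0031), where 1.99% of 6033 genes passed (0.448% higher, 1.54% lower), and did not pass for Igf2 (-0.08, adjusted p = 0.941), H19 (-0.26, adjusted p = 0.175) or Cdkn1c (-0.37, adjusted p = 0.337). Over the whole class, cluster 11 included, G2 and M phase transcripts summed to 8440.0 and 7906 CPM in basal epidermis-like cells of the placode-enriched libraries. They summed to 6621 CPM in those of total epithelium. The fits of the sort and of the interaction left cluster 11 out, so these sums are not of the same cells. The part of G2 and M phase transcripts in the Phlda2 difference was not tested.

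Over the 10 library-by-class sums of at least 20 cells, log2 levels (pseudocount 5 CPM) of Igf2 and H19 had a Pearson r of 0.93 and those of Cdkn1c and Phlda2 one of 0.94, while the other 4 pairs had r from 0.27 to 0.58. The sums share libraries and classes and include that of the 20 melanoblast-like cells, so these are descriptions. From cell to cell within a library and class the ties were weak: the median Spearman rho over 9 such groups was 0.19 for Igf2 and H19 (0.04 to 0.39) and 0.00 for Cdkn1c and Phlda2 (-0.16 to 0.12). Many cells had no UMI of Phlda2 or Igf2, so a low rho does not show that levels per cell are unrelated. Among 5530 genes with at least 20 CPM on average, those most like Igf2 across the 10 sums included Endou, Cluh, Ahnak and Klf5 (r of 0.97 to 0.98). Ppp1r13l, Anxa2, Pou2f3, Sytl1 and Prkrir were most like H19 (0.96 to 0.99). Cpox, Pelo, Ggta1, Hotairm1 and Phlda2 itself were most like Cdkn1c (0.94 to 0.97), and Lmo1, Fhl1, Cth, Galnt18 and the basal keratin Krt15 were most like Phlda2 (0.95 to 0.96). Krt15 is also among the markers that named the basal epidermis-like clusters.

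The neighbours of the members on distal chromosome 7 shared the placode-like direction in part. Of 14 tested neighbours 7 were lower and 0 higher in placode-like cells, beside 20.2% lower and 20.1% higher of all genes tested, with a median log2 fold change of -0.24 against 0.00 over all genes. Ascl2, an imprinted transcription factor of the trophoblast, was lower by a log2 fold change of -1.84 (SE 0.47, adjusted p = 0.00595, edgeR), and Slc22a18, an imprinted transporter gene between Cdkn1c and Phlda2, by -1.07 (SE 0.22, adjusted p = 0.00145). Counts of Ascl2 were low, too few for a test in the tercile and Shh-UMI fits. Kcnq1ot1, the silencing RNA of the Cdkn1c domain, had a value of -0.12 (SE 0.05, adjusted p = 0.0758). In suprabasal-like cells 3 of 14 neighbours were higher and 2 lower (13.5% and 13.2% of all genes), led by Osbpl5 (1.59, SE 0.13, adjusted p = 1.04e-04) and Dhcr7, of cholesterol synthesis (1.07, SE 0.13, adjusted p = 7.93e-04), and by Cd81 (-0.46, SE 0.09, adjusted p = 0.00962).

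**Figure D5:**
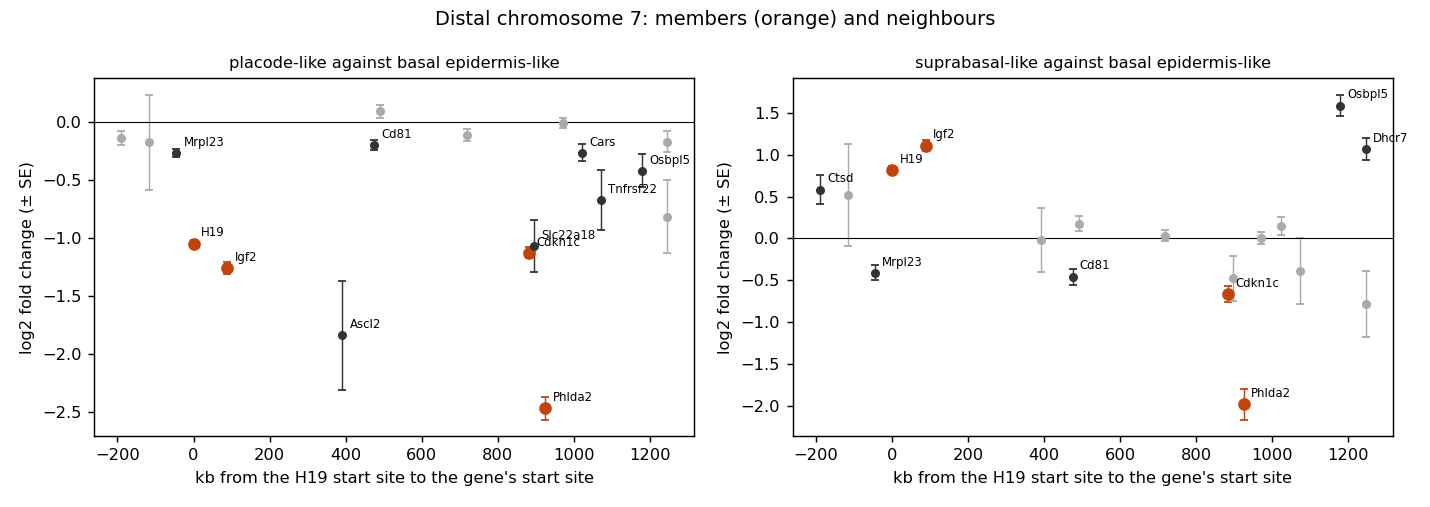
Fitted log2 fold change (± SE, edgeR) of the members and of their tested neighbours on distal chromosome 7 against the distance, in kb, from the H19 start site to each gene's start site, for the placode-like and the suprabasal-like comparison with basal epidermis-like cells. The members are in orange, and Phlda2 (-2.46) lies lower than each tested neighbour in the placode-like comparison.

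Placode-like cells had 5 of 35 other tested imprinted genes higher and 12 lower, beside 20.1% and 20.2% of all genes, with a median log2 fold change of -0.08. The largest rises were those of Nnat (1.099, SE 0.05, adjusted p = 5.01e-10) and Dcn (0.64, SE 0.04, adjusted p = 5.31e-09). Plagl1, a zinc finger regulator of imprinted genes, fell by 0.70 (SE 0.12, adjusted p = 2.89e-04). In suprabasal-like cells 2 of 33 were higher and 11 lower, beside 13.5% and 13.2% of all genes: Plagl1 rose with Igf2 and H19, by 3.00 (SE 0.10, adjusted p = 2.49e-06), and Slc38a4, an amino acid transporter, by 0.82 (SE 0.08, adjusted p = 3.38e-04). Mest, a paternally expressed hydrolase gene, fell by 2.94 (SE 0.21, adjusted p = 5.62e-05).

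Genes of the insulin-like growth factor pathway were 9 higher, 12 lower and 16 not called of 37 tested in placode-like cells, beside 20.1% higher and 20.2% lower of all genes, with a median log2 fold change of -0.03. Igf1, the related ligand, had a log2 fold change of -3.95 (SE 0.42, adjusted p = 3.01e-06), and the receptor Igf1r had -0.44 (SE 0.08, adjusted p = 4.55e-04). Within placode-like cells Igf1 had too few counts to be tested by tercile or by Shh and Sox9 UMIs, so its value rests on low counts there. The binding proteins Igfbp5 and Igfbp2 were lower, with -1.89 (SE 0.05, adjusted p = 1.21e-12) and -1.34 (SE 0.04, adjusted p = 6.54e-12). Grb14, an adaptor that dampens insulin receptor signalling, was higher at 2.42 (SE 0.21, adjusted p = 4.23e-07). For Igf2r, the imprinted receptor that clears Igf2, the value was -0.08 (SE 0.09, adjusted p = 0.518). In suprabasal-like cells 2 of 36 were higher and 10 lower (13.5% and 13.2% of all genes), with Igf1 at -3.10, Igfbp5 at -2.65, Igfbp2 at -2.07 and Igf1r at -1.39 (adjusted p = 0.0032, 8.68e-06, 4.68e-06 and 6.29e-04), so these fell where Igf2 rose.

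Among cyclins, cyclin-dependent kinases and inhibitors of G1, placode-like cells had 5 of 21 higher and 3 lower, and suprabasal-like cells had 8 of 22 higher and 2 lower. Over all genes the shares were 20.1% and 20.2% in the former and 13.5% and 13.2% in the latter, so the placode-like counts lie near those of genes at large. Cdkn1a, of the same protein family as Cdkn1c, was higher in both, by 1.85 (SE 0.18, adjusted p = 1.27e-06) and 4.30 (SE 0.20, adjusted p = 9.01e-06), where Cdkn1c was lower. Cdkn1b gave 0.19 (adjusted p = 0.0996) and 0.04 (adjusted p = 0.976). Of the relatives of Phlda2, Phlda1 was higher in placode-like cells (0.81, SE 0.05, adjusted p = 1.13e-08) and Phlda3 was lower (-0.51, SE 0.06, adjusted p = 5.56e-06). In Shh-UMI cells, where Phlda2 was lower, Phlda1 was higher by 1.25 (SE 0.05, adjusted p = 3.29e-53). Regulators of imprinting or of imprinted transcripts were 7 higher and 4 lower of 22 in placode-like cells, with Igf2bp1, which binds Igf2 mRNA, at -0.38 (SE 0.05, adjusted p = 6.73e-05), and 2 higher and 8 lower of 22 in suprabasal-like cells, against the same shares over all genes.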

How the data were processed

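Single-cell RNA libraries of 3 littermate pools were analysed. The authors deposited whole UMI counts per gene and cell, not normalized, per the file headers and the values. Cell Ranger, Seurat and mm10 are named per the submitters' processing notes; the sources used here give no versions, annotation, strand setting or cell filters. The 2 placode-enriched libraries shared a table and were parted by the barcode's ending, taken as the library number.

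Doublets were called with scrublet (scanpy 1.11.5, expected rate 0.05); it marked 11, 4 and 4 cells, so doublets may remain. Cells were clustered (Leiden, igraph 0.11.9, resolution 1, 20 neighbours, 30 components, 1000 variable genes) on 1 of 2 arbitrary sets of genes, without members, lists and markers. Clusters were named where at least 5 of 9 placode markers reached 25% of the highest cluster's level, all 7 of 7 basal markers 50%, 3 of 8 suprabasal markers 25%, or 5 of 6 melanoblast markers 50%; these numbers were set after the clusters were seen. Names are rebuilt and may differ from the study's.

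UMIs were summed per library and class (at least 20 cells) and tested with edgeR 4.0.16 in R 4.3.3 (TMM, filterByExpr, quasi-likelihood, library as a block, Benjamini-Hochberg at 0.05 over all genes tested). The block pairs sums of the same library, which come from the same embryos. Class tests used the other gene set with members and lists, 6218 and 5850 genes after the filter. Fits of the sort within a class left out clusters 9 and 11, which have Col1a2 and Sostdc1, markers of other classes, among their leading genes. On simulated counts, 100% of genes changed by a log2 of 1 were recovered for placode-like against basal epidermis-like cells (6232 genes), and 87% for the sort over all cells (13658 genes). The simulated sums had a fixed dispersion and no differences between libraries or in cluster makeup. Genes with few counts were not changed, so the rates do not cover these conditions. Alternatives were DESeq2 1.42.0, upper-quartile scaling, no filter, no block, thinning to 5000 UMIs, other clusterings and leaving out each library. Alternatives on stricter names, clusters 9 and 11, cycle share, fibroblast share and upper-quartile scaling of 3 comparisons were chosen after seeing the data.

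Members, lists and comparisons were chosen with earlier results of these data known. The genes that could be named besides the members were the 5 most like each (1 is not reported here), the largest 2 rises and falls of each list, and listed genes of a defining role; Col1a1, Col3a1, Xist and leading genes of clusters were added as checks. Intervals cover counting error only.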

Additional observations from a re-analysis of the deposited data

Results flagged for a closer look

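The class difference of Phlda2 differed between the sorts by the interaction test: the log2 difference between placode-like and basal epidermis-like cells was lower by -1.51 in the placode-enriched than in the total epithelium library (SE 0.36, edgeR adjusted p = 0.0031). It rests on 25 Phlda2 UMIs in the placode-like cells of total epithelium, on 1 residual degree of freedom and on basal classes made of different clusters. With upper-quartile scaling it was -1.47 (adjusted p = 0.0044).

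The Igf2 ratios between cells with a high and a low G2 and M phase share had opposite signs in the 2 classes. The mean log2 ratio between the upper and the lower tercile was -0.13 in basal epidermis-like cells and 0.39 in placode-like cells, with every library at or under 0 in the former and above 0 in the latter. In placode-enriched library 2 the basal ratio was close to 0, at 129.3 against 129.4 CPM. The basal difference did not pass its test (-0.16, edgeR adjusted p = 0.0831), the placode-like one did (0.50, adjusted p = 2.89e-06), and the difference between the classes was not tested.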

How the results depend on the processing

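Of 398 values recomputed under alternatives, 331 kept their direction and side of the threshold, moved by less than the spread between replicates or, for counts of genes, stayed within 1.5 times. The placode-like and Shh-UMI differences of all 4 members passed under every alternative run (16 and 7 each). So did the suprabasal-like ones (15 each), except Cdkn1c over cells with a low G2 and M phase share (-0.31, with adjusted p of 3.98e-14 to 0.216 over its alternatives). The stricter rule for naming clusters gave no test of suprabasal-like cells. It left 242 of them in total epithelium but only 8 in each placode-enriched library, fewer than the 20 needed for a sum. The suprabasal-like levels of the placode-enriched libraries therefore rest mostly on cluster 7, which met 3 of 8 suprabasal markers, the fewest that the rule allowed.

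Counts of genes called were lower without the library block that pairs sums of the same library: 1258 for placode-like cells, 975 for suprabasal-like cells, 422 and 1020 for the G2 and M phase terciles of basal epidermis-like and placode-like cells, and 728 for Shh-UMI cells, against 2505, 1563, 2218, 3472 and 2276 with it. Without the block Cdkn1c in the basal terciles (0.17) and H19 (0.48) and Cdkn1c (0.45) in the placode-like terciles no longer passed; no other member call changed. With DESeq2 the counts were 1504, 1039, 557, 902 and 550 in the same order, and 2045, 42 and 171 for the sort over all cells, placode-like cells and basal epidermis-like cells, against 4374, 201 and 801. DESeq2 ended the calls of Cdkn1c in the basal terciles (0.18), of Igf2 (0.47), Cdkn1c (0.44) and Phlda2 (1.03) in the placode-like terciles, and of Phlda2 for the sort in basal epidermis-like cells (0.41). Cells thinned to 5000 UMIs gave 1234, 777, 71 and 341 calls for placode-like cells, suprabasal-like cells and the sort in placode-like and basal epidermis-like cells; the sort value became -0.44 for Igf2 in placode-like cells (reversed) and 0.24 for Phlda2 in basal epidermis-like cells (not called), and the suprabasal-like level of Phlda2 was 17.1 CPM. Only low G2 and M cells gave 860 calls for suprabasal-like cells.

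A clustering resolution of 0.5 gave 1182 calls for placode-like cells and 49 for the sort in placode-like cells, where H19 was at -0.36 (not called) and Cdkn1c (0.26) and Phlda2 (0.17) changed sign. At resolution 2 the sort values in placode-like cells were -0.39 for Igf2 (reversed) and -0.71 for Cdkn1c (called), and basal epidermis-like cells had 450 calls with Phlda2 at 0.20 (not called). No filter on low counts put Phlda2 at 0.40 for the sort in basal epidermis-like cells (not called) and H19 at 0.0039 in the basal terciles (reversed). Upper-quartile scaling gave 62 calls for the sort in placode-like cells, called Igf2 in the basal terciles (-0.19) and lost Cdkn1c there (0.13); it moved the split of higher and lower calls from 789 and 774 to 697 and 958 for suprabasal-like cells, from 1117 and 1101 to 890 and 1374 and from 1870 and 1602 to 1284 and 2273 for the basal and placode-like terciles, and from 102 and 99 to 19 and 43 for the sort in placode-like cells. A split at the median in place of terciles called Igf2 in basal epidermis-like cells (-0.16).

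Leaving out each library gave 723 to 1852 calls for suprabasal-like cells (723 without placode-enriched library 1), 1350.0 to 1812 and 1172 to 3775 for the basal and placode-like terciles (lowest without placode-enriched libraries 1 and 2) and 963 to 2398 for Shh-UMI cells (963 without library 2, 1189 without library 1). In the basal terciles Igf2 ranged from -0.22 to -0.056, H19 from -0.075 to 0.071 (highest without total epithelium) and Cdkn1c from 0.14 to 0.20; in the placode-like terciles Igf2 ranged from 0.29 to 0.64, Cdkn1c from 0.32 to 0.53 and Phlda2 from 0.79 to 1.34. For the sort, Igf2 ranged from -0.76 to -0.38 over all cells, -0.069 to 0.16 in placode-like and -0.06 to 0.32 in basal epidermis-like cells, and H19 from -1.35 to -1.08 over all cells and -0.70 to -0.36 in basal epidermis-like cells. With resolution 0.5 too few basal epidermis-like cells were left in the placode-enriched libraries for the sort, no cell was unnamed, so counting unnamed clusters as basal gave no value, and without a placode-enriched library the sort is 1 library against 1 and has no test. Where no value above bears on it, the cause of a change was not tested. Phlda2 is the member most limited by depth, with 6 to 32 UMIs in the placode-like sums of total epithelium.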

Other observations

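Kcnq1ot1, the non-coding RNA that silences the paternal Cdkn1c domain, was higher in the placode-enriched than in the total epithelium library, by log2 fold changes of 0.54 in placode-like cells (SE 0.15, edgeR adjusted p = 0.0169) and 0.78 in basal epidermis-like cells (SE 0.12, adjusted p = 7.15e-09). Nnat, an imprinted proteolipid gene, was higher by 0.78 (SE 0.15, adjusted p = 5.38e-05) and 0.69 (SE 0.14, adjusted p = 2.00e-05). Both directions are opposite to that of H19 within the same classes. Other imprinted genes went the way of H19 in basal epidermis-like cells, among them Plagl1 (-0.76) and Blcap (-0.52). The median log2 fold change of the other imprinted genes tested was 0.11 in placode-like and 0.06 in basal epidermis-like cells. The basal epidermis-like cells of the 2 sorts came mostly from different clusters, and the part of this was not tested. Sort and litter cannot be told apart in these values.

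Dlk1 and Meg3, an imprinted pair of chromosome 12, fell in placode-like cells of the placode-enriched libraries by 9.40 and 3.62 on the log2 scale, but all 46 Dlk1 UMIs and 84 of 91 Meg3 UMIs of the total epithelium library in that class were in 2 cells.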
